A study of Mus musculus with 4 samples.

Results

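The interferon-induced genes were 47 genes named by symbol, and 46 of them had a row in the expression matrices of 24421 genes. Ifi207 had no row. All 46 passed the filter on low values and were among the 14106 genes tested. The libraries were made from the epididymal adipose tissue, a visceral fat depot beside the epididymis, of wild-type male C57BL/6J mice. The weight-cycling mice (WC1) started on a high-fat diet (HFD) at the age of 8 weeks, stayed on it for 8 weeks, were switched to a standard diet for 2 weeks and then returned to HFD for 6 weeks. The control mice (Ctrl) started at the age of 10 weeks and stayed on HFD without a break for 14 weeks. Time on HFD therefore added up to 14 weeks in each group, and the mice were 24 weeks old at the end. Both groups carry the effects of HFD, since no group without it is among these libraries. Each group had 2 libraries, Ctrl 1 and Ctrl 2, and WC1 1 and WC1 2. The labels give them as separate samples without naming the mice, so p-values measure the spread between these libraries.

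Interferons are secreted proteins that cells release on sensing nucleic acids of viruses or damaged cells, or, in the case of interferon gamma, that T and NK cells release on activation. Type I interferons act through the IFNAR receptor, JAK kinases and a complex with STAT2 and IRF9 that binds the interferon-stimulated response element (ISRE). Interferon gamma acts through the IFNGR receptor, and many of its target genes hold the gamma-activated site (GAS). The induced genes encode antiviral enzymes, nucleic acid sensors, transcription factors and GTPases that attack the membranes around intracellular microbes, and in adipose tissue macrophages, endothelial cells and adipocytes can all express them.

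The promoters of 34 of the 46 members were found in a RefSeq table on GRCm38.p6, which holds 250 bases before and 50 bases after each start. The ISRE core was searched as GAAANNGAAA and the GAS as TTCNNNGAA, each on both strands, and N stands for any base. The ISRE core was present in the promoters of 21 of these 34 members (61.8%) and of 3.99% of all 27025 genes of the table (3.44% of its 32851 windows). The GAS was present for 12 members (35.3%) and for 9.55% of all genes (8.30% of windows). All 6 GTPase members with a promoter entry held the ISRE core. So did all members with an entry among the nucleic acid sensors (3), the PYHIN genes (2) and the ISG15 system (1). The core was present for 1 of the 6 transcription factors. The bases upstream of the start are given for 4 GTPase genes that were higher in WC1, for Ifi205, which was lower, and for Isg15 and Ifit3, which were not called. Capitals mark the ISRE core on either strand, and matches that overlap run together. A window was cut short where it would otherwise have held more than 30 bases of annotated exons. The windows of Gbp2, Gbp5 and Ifi205 hold 30 such bases each and that of Gbp3 holds 18.
Gbp2, chr3:142620483-142620631, plus strand: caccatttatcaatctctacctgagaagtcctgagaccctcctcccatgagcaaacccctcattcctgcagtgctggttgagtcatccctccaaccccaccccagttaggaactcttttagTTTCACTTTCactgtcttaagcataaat
Gbp3, chr3:142559864-142560043, plus strand: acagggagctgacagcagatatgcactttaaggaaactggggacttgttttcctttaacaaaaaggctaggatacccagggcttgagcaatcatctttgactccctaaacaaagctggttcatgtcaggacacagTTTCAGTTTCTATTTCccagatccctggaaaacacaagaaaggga
Gbp5, chr3:142496754-142496929, plus strand: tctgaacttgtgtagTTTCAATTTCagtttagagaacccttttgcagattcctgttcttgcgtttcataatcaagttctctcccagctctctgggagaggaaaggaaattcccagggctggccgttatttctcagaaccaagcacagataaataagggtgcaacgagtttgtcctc
Igtp, chr11:58199376-58199555, plus strand: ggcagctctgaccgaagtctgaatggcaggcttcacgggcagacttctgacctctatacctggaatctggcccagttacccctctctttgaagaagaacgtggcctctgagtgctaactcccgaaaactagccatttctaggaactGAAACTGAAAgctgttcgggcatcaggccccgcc
Ifi205, chr1:174031781-174031935, minus strand: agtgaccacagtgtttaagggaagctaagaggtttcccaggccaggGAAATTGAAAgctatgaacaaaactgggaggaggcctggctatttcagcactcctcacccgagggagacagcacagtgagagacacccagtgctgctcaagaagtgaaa
Isg15, chr4:156200819-156200998, minus strand: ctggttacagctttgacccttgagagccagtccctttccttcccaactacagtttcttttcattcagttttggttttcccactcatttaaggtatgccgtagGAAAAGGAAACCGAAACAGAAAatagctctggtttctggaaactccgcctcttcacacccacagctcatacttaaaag
Ifit3, chr19:34583349-34583528, plus strand: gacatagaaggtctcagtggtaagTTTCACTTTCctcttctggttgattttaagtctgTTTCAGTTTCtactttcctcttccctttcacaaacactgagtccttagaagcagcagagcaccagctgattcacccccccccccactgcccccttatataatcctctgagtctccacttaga
The match began 59 bases before the RefSeq start in Gbp2, 34 bases before it in Igtp and 134 bases before it in Ifi205, whose window held another match 23 bases after the start that is not printed. Isg15 held 3 overlapping matches, Gbp3 held 2 overlapping matches, and Ifit3 held 2 separate ones. Only genes with a match in this stretch were printed, so the printed genes do not compare called with uncalled members. Among all members with a promoter entry the core was present for 4 of 4 called higher, 2 of 2 called lower and 15 of 28 not called. A match is a description of letters and not of binding. Gbp4, Iigp1, Ifi27l2a, Ifi204, Oas2, Mx1, Mx2, Usp18, Dhx58, Zbp1, Rtp4 and Parp14 had no promoter entry.

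The libraries held 61465029 to 90965297 reads, and 3 reads corresponded to 0.0345 to 0.0492 CPM (reads divided by a library size that the authors rescaled), so counting error was small for every member. The lowest member value in any library was 1.68 CPM and the highest 718 CPM. The correlation of log2 values between the libraries of a group was 0.994 in Ctrl and 0.989 in WC1, against 0.964 to 0.981 across groups. Markers of the labelled tissue were present, with adipocyte marker sums of 9625 and 10770 CPM in Ctrl and 17369 and 22420 CPM in WC1, and 5 of 7 adipocyte markers were higher in WC1 in limma. Endothelial markers were higher in 5 of 6 cases (sums of 346 and 394 CPM in Ctrl, 734 and 942 CPM in WC1). Macrophage markers were lower in 7 of 12 cases (sums of 13169 and 12091 CPM in Ctrl, 7871 and 5618 CPM in WC1). The part of these shifts in the results on interferon-induced genes was not tested, and in bulk tissue fewer cells of a type and less RNA per cell cannot be told apart. The 4 epididymis markers were at 0 in all libraries.

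Among the interferon-induced genes, 6 of 8 GTPase genes and Ifi27l2a were higher in WC1, a pair of PYHIN genes and Ifitm3 were lower, and no IFIT, OAS, ISG15 system or sensor gene was called. In limma at an adjusted p under 0.05, 7 of 46 members were higher in WC1 (15.2%), against 10.2% of all tested genes. Lower members numbered 3 (6.52%), against 7.71% of all tested genes. In either direction 10 members were called (21.7%), against 17.9% of all tested genes, so the share called was near that of the whole transcriptome. The median log2 fold change of the members was 0.07, beside -0.02 over all tested genes, and 25 members lay within 0.25 of no change. The SD of the log2 fold changes was 0.46 over the members and 0.46 over all tested genes. Both WC1 libraries exceeded both Ctrl libraries for 20 members (43.5%), against 32.7% of all tested genes. Both WC1 libraries lay below both Ctrl libraries for 11 members (23.9%), against 36.6% of all tested genes, and the groups overlapped for the other 15. Without Ctrl 1, and likewise without Ctrl 2, 0 members were called in either direction in limma, while all 10 called members had an unadjusted p under 0.05 in each of these fits. Over all tested genes the calls fell as far, to 0.0142% higher and 0.0284% lower without Ctrl 1 and to 0.0425% in each direction without Ctrl 2. Without WC1 1, 10 members were higher and 8 lower, against 17.2% and 19.5% of all tested genes. Without WC1 2, 6 were higher and 3 lower, against 10.1% and 8.73%. Without the filter on low values 2 members (Iigp1 and Ifi27l2a) were higher and 1 (Ifi205) lower, against 4.35% and 2.93%.

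**Figure D1:**
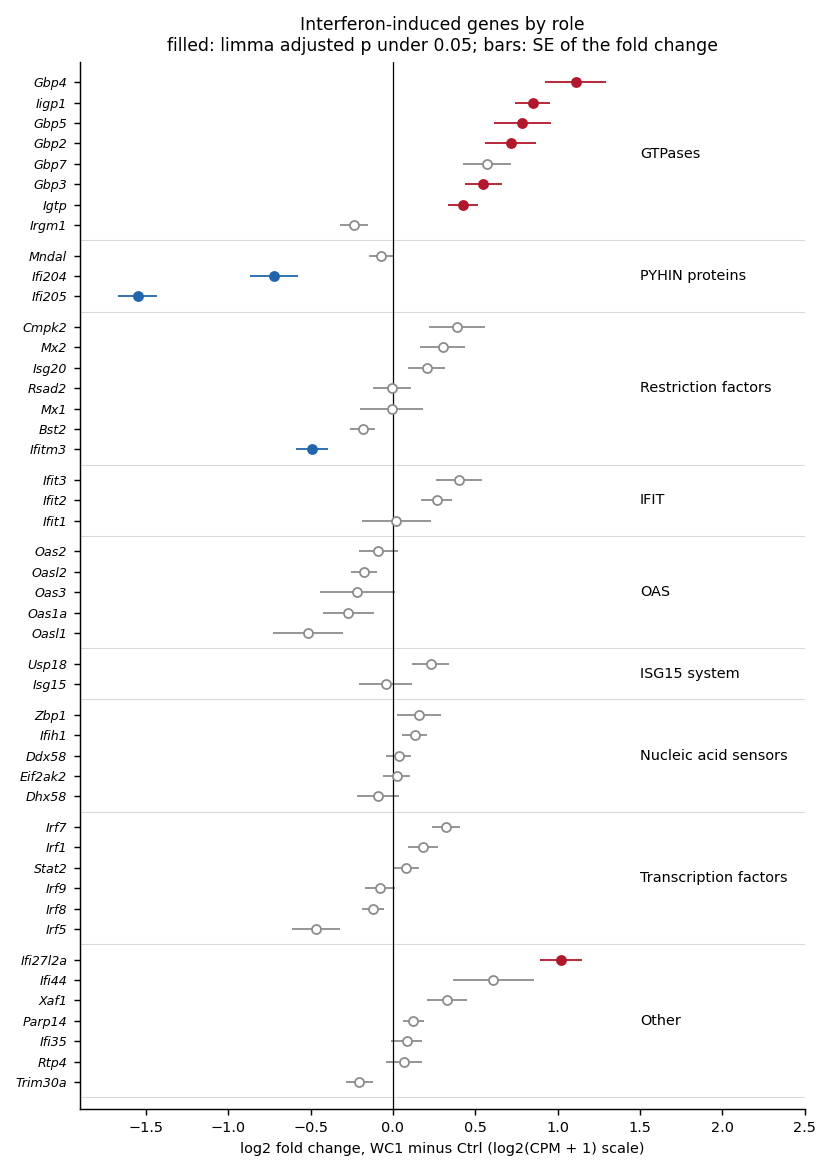
Log2 fold change (WC1 minus Ctrl, log2(CPM + 1) scale, x axis) of the 46 interferon-induced genes, grouped by role, with bars for the standard error and filled points for an adjusted p under 0.05 in limma. Of the 8 GTPase genes 6 are filled on the right, 2 PYHIN genes and Ifitm3 are filled on the left, and no gene of the IFIT, OAS, ISG15, sensor or transcription factor groups is filled.

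The GTPase members were guanylate-binding proteins (GBPs), which assemble on the vacuoles of intracellular microbes and open them, and immunity-related GTPases (IRGs), which act on the same membranes and are typical targets of interferon gamma in the mouse. Of the 8 GTPase members 6 were higher in WC1, beside 10.2% of all tested genes, and their median log2 fold change was 0.64, beside -0.02 over all tested genes and 0.02 over the 38 tested members of other groups. Gbp4 measured 12.2 and 14.6 CPM in the Ctrl libraries against 25.3 and 35.4 CPM in the WC1 libraries. The groups did not overlap, and the log2 fold change was 1.11 ± 0.18 (SE, 2 libraries per group, adjusted p = 0.0254 in limma). Gbp5, a guanylate-binding protein linked to inflammasome activation, measured 6.51 and 7.38 CPM in Ctrl against 10.8 and 14.9 CPM in WC1. The difference was 0.78 ± 0.17 (adjusted p = 0.0421 in limma), with the larger value in WC1 2, and was not called under quantile normalization. Gbp2, the most abundant GTPase member per transcript length (a mean of 51.3 TPM), measured 41.8 and 50.8 CPM in Ctrl against 67.1 and 86.5 CPM in WC1. Here too the groups were apart, and the log2 difference was 0.71 ± 0.16 (adjusted p = 0.0416 in limma). Gbp3 measured 14.8 and 15.5 CPM in Ctrl against 20.6 and 24.7 CPM in WC1, a log2 fold change of 0.55 ± 0.11 (adjusted p = 0.0367 in limma).

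Of the 3 IRG members 2 were called, both higher, beside 10.2% of all tested genes called higher. Iigp1, an effector that coats parasite vacuoles, measured 17.0 and 17.6 CPM in Ctrl against 29.4 and 34.6 CPM in WC1. The difference was 0.85 ± 0.10 (adjusted p = 0.0167 in limma). Igtp, a regulatory IRG of the endoplasmic reticulum, measured 14.6 and 15.4 CPM in Ctrl against 19.5 and 21.5 CPM in WC1, a log2 fold change of 0.42 ± 0.09 (adjusted p = 0.0412 in limma). Igtp was no longer called without WC1 2. Irgm1, a regulatory IRG of the Golgi and of lysosomes, was the exception in direction and was not called. It measured 30.5 and 33.4 CPM in Ctrl against 27.6 and 26.3 CPM in WC1, a log2 fold change of -0.24 ± 0.08 (adjusted p = 0.110 in limma). Gbp7, named after its values were seen, measured 14.7 and 16.2 CPM in Ctrl against 20.47 and 26.8 CPM in WC1. It missed the threshold (0.57 ± 0.15, adjusted p = 0.0573 in limma). Gbp7 was called higher in DESeq2, with the libraries paired by number (a replicate block) and without WC1 1. All 8 GTPase members were free of overlap between groups, 7 with the WC1 libraries above and Irgm1 with them below, beside 32.7% and 36.6% of all tested genes. The endothelial and adipocyte marker sums given above were higher in WC1 too, and their part in the GTPase levels was not tested.

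**Figure D2:**
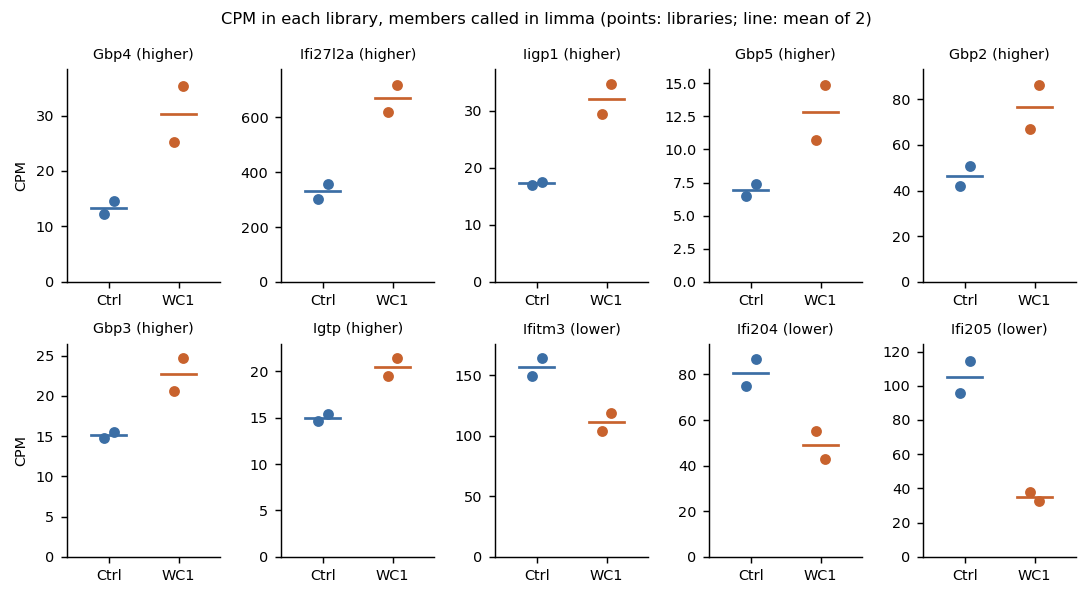
CPM in each library (y axis, from 0, a scale of its own in each panel) of the 10 interferon-induced genes called in limma, with points for libraries and a line for the mean of 2. In each panel the Ctrl and WC1 points do not overlap, and the 7 genes called higher and the 3 called lower are named in the panel titles.

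These genes lie in clusters of close paralogs, so reads may be shared among them. On GRCm38 (GENCODE M21), Gbp5 (chr3:142493978-142522344), Gbp7 (chr3:142530342-142550149), Gbp3 (chr3:142560026-142573209) and Gbp2 (chr3:142620602-142638008) lie in this order on the plus strand of chromosome 3. Gbp4 (chr5:105115767-105139586, minus strand) overlaps Gbp8 and Gbp9 on the same strand, and Igtp (chr11:58199556-58207591, plus strand) overlaps Irgm2 on the same strand. The sources used here do not give how reads of such overlaps were assigned, so the split of the change between these neighbours is uncertain.

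The PYHIN proteins pair a pyrin domain with HIN domains that bind nucleic acids, and their genes form a cluster on chromosome 1 that differs between mouse strains. Of the 3 PYHIN members measured 2 were lower in WC1, beside 7.71% of all tested genes. Ifi205 measured 95.9 and 114 CPM in Ctrl against 37.6 and 32.8 CPM in WC1. The fall to 0.335 of the Ctrl mean was the largest change among the members in either direction on the log2 scale, at -1.55 ± 0.12 (adjusted p = 0.0088 in limma). Ifi204, which takes part in sensing of cytosolic DNA, measured 74.9 and 86.6 CPM in Ctrl against 55.0 and 42.7 CPM in WC1, a log2 fold change of -0.72 ± 0.14 (adjusted p = 0.0352 in limma). Mndal, which was not called, measured 52.0 and 56.2 CPM in Ctrl against 51.6 and 51.1 CPM in WC1 (-0.07 ± 0.07, adjusted p = 0.510 in limma). Its sign was positive on the TPM scale. Ifi204 (chr1:173747293-173766943) and Ifi205 (chr1:174011998-174031810) lie on the minus strand, overlap no other annotated gene and have close paralogs nearby, whereas Mndal overlaps Ifi203 and Ifi211 on its own strand. The macrophage marker sums were lower in WC1 too, as were the fibroblast marker sums (3911 and 3905 CPM in Ctrl, 3463 and 2790 CPM in WC1). The part of either cell type in the levels of Ifi204 and Ifi205 was not tested.

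The restriction factors act directly on viruses, and 1 of 7 was called, beside 17.9% of all tested genes. Ifitm3, a membrane protein that blocks fusion of viruses in endosomes (chr7:141009586-141010770, minus strand), measured 149 and 164 CPM in Ctrl against 104 and 119 CPM in WC1. The groups were apart, with a log2 fold change of -0.49 ± 0.10 (adjusted p = 0.0343 in limma). On the TPM scale Ifitm3 was lower by less and was not called, and likewise Ifi204, and under quantile normalization Ifitm3 was not called either. The part of the lower macrophage and fibroblast markers in the level of Ifitm3 was not tested. Bst2 (tetherin), which holds budding viruses at the cell surface, measured 52.8 and 51.4 CPM in Ctrl against 43.8 and 47.8 CPM in WC1 (-0.18 ± 0.08, adjusted p = 0.149 in limma). Rsad2 (viperin), Cmpk2, Isg20, Mx1 and Mx2 were not called either, with log2 fold changes from -0.01 to 0.39. Mx1 of C57BL/6J carries a known deletion that leaves no working protein, and its level here was 3.17 to 4.83 CPM in all 4 libraries.

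Ifi27l2a, a small hydrophobic protein of unclear function that responds strongly to type I interferon (chr12:103442167-103443680, minus strand), was the most abundant member and has a close paralog, Ifi27l2b, with which reads may be shared. It measured 302 and 357 CPM in Ctrl against 620.3 and 718 CPM in WC1, so that each WC1 library was well above each Ctrl library. The log2 fold change was 1.02 ± 0.13 (adjusted p = 0.0175 in limma). Among the 7 members without a common role it was the only one called, beside 17.9% of all tested genes. Ifi35, which binds the interferon regulator NMI, measured 26.8 and 26.9 CPM in Ctrl against 26.5 and 30.6 CPM in WC1 (0.08 ± 0.10, adjusted p = 0.556 in limma), with overlapping groups. The other 5, Ifi44, Xaf1, Parp14, Rtp4 and Trim30a, had log2 fold changes from -0.20 to 0.61 and none was called, though without WC1 1 Ifi44 was called higher and Trim30a lower. Ifi44 measured 2.54 and 2.68 CPM in Ctrl against 3.33 and 6.00 CPM in WC1, so that its difference rested mainly on WC1 2.

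No IFIT, OAS or ISG15 system member was called in limma over all libraries. None of the 3 IFIT members, which bind foreign RNA ends, was called (median log2 fold change 0.26). Ifit3 measured 13.3 and 17.2 CPM in Ctrl against 19.7 and 20.9 CPM in WC1 (0.40 ± 0.14, adjusted p = 0.109 in limma). The WC1 libraries were above both Ctrl libraries for Ifit3 and Ifit2, and the groups overlapped for Ifit1. None of the 5 OAS members, which make the messenger that activates RNase L or are related to enzymes that do, was called, and all 5 had a negative log2 fold change (median -0.22). Oas1a measured 31.3 and 28.8 CPM in Ctrl against 28.8 and 21.2 CPM in WC1 (-0.27 ± 0.16, adjusted p = 0.270 in limma), with WC1 2 below the other 3 libraries. Without WC1 1, where WC1 2 stands alone, Oas1a, Oas3 and Oasl1 were called lower. Of the ISG15 system, the ubiquitin-like modifier Isg15 measured 4.97 and 6.33 CPM in Ctrl against 4.87 and 6.02 CPM in WC1 (-0.04 ± 0.16, adjusted p = 0.865 in limma). Its sign turned with the scale and with the library left out. Usp18, the protease that removes the modifier and holds back IFNAR signalling, had a log2 fold change of 0.23 and was not called.

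The 5 nucleic acid sensors were not called and had log2 fold changes between -0.09 and 0.16. These were Ddx58 (RIG-I), Ifih1 (MDA5) and Dhx58 (LGP2), which sense viral RNA, Eif2ak2 (PKR), which halts translation, and Zbp1, which senses left-handed nucleic acids and can start necroptosis. Zbp1 measured 8.22 and 9.01 CPM in Ctrl against 8.72 and 10.8 CPM in WC1 (0.16 ± 0.13, adjusted p = 0.434 in limma), with overlapping groups. In limma on the CPM scale, over all libraries and without a replicate block, the 6 transcription factors were not called. Irf5 was called lower in DESeq2, with a replicate block and without WC1 1. Irf1 was called higher without WC1 1, and Irf7 was called higher in edgeR, in DESeq2 and on the TPM scale. Irf5, a factor of inflammatory macrophages and the most abundant of them per transcript length (a mean of 148 TPM), measured 195 and 179 CPM in Ctrl against 155 and 117 CPM in WC1. The groups did not overlap, and the log2 fold change of -0.47 ± 0.15 missed the threshold (adjusted p = 0.0853 in limma). Irf7, which amplifies type I interferon production and is named after its values were seen, measured 15.9 and 16.9 CPM in Ctrl against 20.7 and 20.8 CPM in WC1 (0.32 ± 0.08, adjusted p = 0.0569 in limma). Irf1, Irf8, Irf9 and Stat2 had log2 fold changes from -0.12 to 0.18.

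Levels of different members were compared only as TPM, which corrects for transcript length. The mean over the 4 libraries ranged from 1.82 TPM for Oas3 to 2208 TPM for Ifi27l2a, with a median of 16.9 TPM. Ifitm3 was next at 415 TPM, followed by Irf5 at 148 TPM and Bst2 at 129 TPM, and the libraries of Irf5 and Bst2 overlapped. Ifi27l2a took 45.3% of the summed TPM of all members in Ctrl and 66.4% in WC1, so a sum over the members would weigh this gene above all others. Ifi205 stood at a mean of 125 TPM in Ctrl and 46.2 TPM in WC1. Gbp2 stood at 36.2 TPM in Ctrl and 66.4 TPM in WC1.

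**Figure D3:**
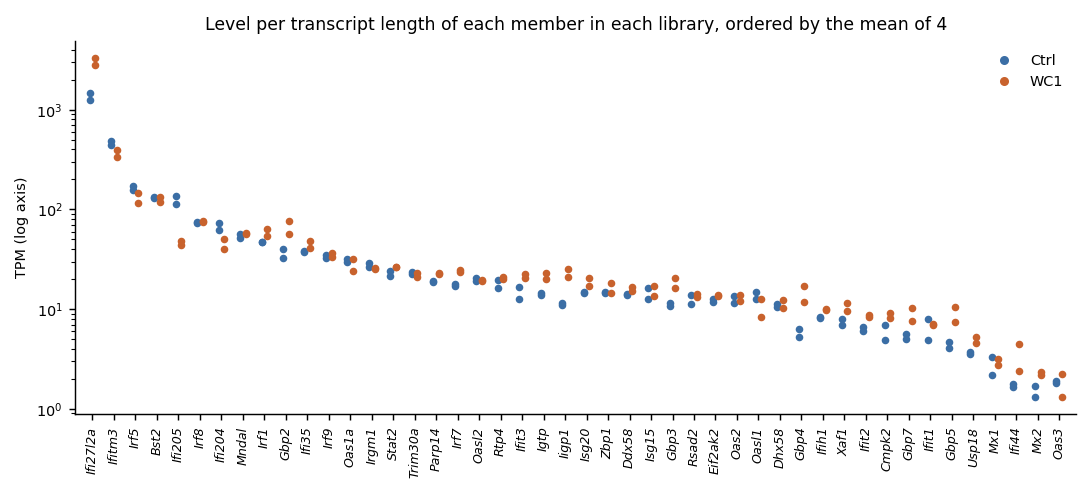
TPM (y axis, log scale) of each of the 46 interferon-induced genes in each library, ordered by the mean of the 4 libraries, with Ctrl and WC1 points side by side. Ifi27l2a lies above all other members in every library, most members lie between 1 and 100 TPM, and the Ctrl and WC1 points of Ifi205 and of the GBPs stand apart.

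The libraries of a group differed among themselves too. The SD over members of the log2 difference between WC1 2 and WC1 1 was 0.26, beside 0.32 over all tested genes, and that between Ctrl 2 and Ctrl 1 was 0.16, beside 0.24. The value was higher in WC1 2 than in WC1 1 for 28 of 46 members, including each of the 6 called GTPases and Ifi27l2a. It was higher in Ctrl 2 than in Ctrl 1 for 35 members, including the same 6 GTPases and Ifi27l2a. The shares of all tested genes beside these counts were not computed.

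The genes that make, receive, induce and hold back the interferon signal were described from separate lists. Of 21 interferon ligand genes none passed the filter, and 17 were at 0 reads in all libraries. Ifng was at 4 reads in Ctrl 2 and Ifnb1 at 3 reads in Ctrl 2, and both were at 0 in the other libraries. Ifne was at 4 reads in Ctrl 1 only, and Ifnz had 1 to 3 reads in each library. At these depths a difference in ligand transcripts between groups was not detectable. T cell marker sums were 11.9 and 6.85 CPM in Ctrl and 6.96 and 11.9 CPM in WC1, and NK cell marker sums were 7.68 and 7.52 CPM in Ctrl and 7.11 and 7.64 CPM in WC1, with 0 of 6 markers called in either list.

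Of the 6 receptor chains 5 were tested and none was called in limma. Ifnar1 measured 129 and 128 CPM in Ctrl against 119.9 and 105 CPM in WC1, and Ifnar2 measured 130.3 and 132 CPM in Ctrl against 129 and 143 CPM in WC1. Ifngr1, the ligand-binding chain of the interferon gamma receptor, measured 205 and 219.8 CPM in Ctrl against 220.4 and 226 CPM in WC1. Ifngr2, its signalling chain, measured 132 and 134 CPM in Ctrl against 109 and 90.6 CPM in WC1, apart between groups but short of the threshold (log2 fold change -0.41 ± 0.11, adjusted p = 0.0558 in limma). Il10rb, shared by the receptors of interferon lambda and interleukin 10, measured 214 and 207 CPM in Ctrl against 182 and 135 CPM in WC1, and Ifnlr1 was under 0.6 CPM in every library. All chains except Ifnlr1 were thus present at over 90 CPM in each library.

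Of 13 genes of sensing and induction 4 were lower in WC1 and 0 higher, beside 7.71% and 10.2% of all tested genes. These were the sensor Tlr7 (-0.81 ± 0.17, adjusted p = 0.0376 in limma), the adaptor of cytosolic DNA sensing Tmem173, which encodes STING (-0.41 ± 0.08, adjusted p = 0.0303 in limma), the Toll-like receptor adaptor Myd88 (-0.34 ± 0.08, adjusted p = 0.0456 in limma) and the kinase Tbk1 (-0.36 ± 0.09, adjusted p = 0.0488 in limma). On the TPM scale none of these 4 was called, and the log2 fold changes of Myd88 and Tbk1 were -0.20 and -0.22. Without the filter on low values Tlr7, Myd88 and Tbk1 were not called, nor were Myd88 and Tbk1 without WC1 2 or Tbk1 under quantile normalization. Tlr7 measured 52.1 and 48.7 CPM in Ctrl against 33.6 and 23.8 CPM in WC1. Of 7 inhibitor genes 2 were lower and 0 higher, beside the same shares of all tested genes. Socs3, which blocks JAK kinases of cytokine receptors, measured 28.4 and 36.4 CPM in Ctrl against 17.7 and 17.1 CPM in WC1 (-0.85 ± 0.13, adjusted p = 0.0236 in limma). Ptpn6, a phosphatase of blood cells, had a log2 fold change of -0.49 ± 0.11 (adjusted p = 0.0454 in limma) and was not called on the TPM scale, in edgeR or without the filter. The median log2 fold change was -0.29 for the sensing and induction genes and -0.23 for the inhibitors. The part of the lower macrophage and fibroblast markers in these values was not tested.

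Of 50 further interferon-stimulated genes 47 were measured and tested, and 5 were higher and 3 lower in WC1, with a median log2 fold change of 0.05, beside shares of 10.2% and 7.71% over all tested genes, so the number called was near the background. The higher genes were Gbp6 (1.03 ± 0.11, adjusted p = 0.0142 in limma), Gbp10 (0.97 ± 0.12, adjusted p = 0.0167 in limma), Gbp9 (1.06 ± 0.15, adjusted p = 0.0204 in limma) and the ADP-ribosylation partners Parp9 (0.48 ± 0.08, adjusted p = 0.0268 in limma) and Dtx3l (0.30 ± 0.07, adjusted p = 0.0481 in limma). Gbp6 measured 20.7 and 23.0 CPM in Ctrl against 42.0 and 49.6 CPM in WC1, with no overlap. Gbp8 and Gbp11 were not called, nor were the IRG genes Irgm2 (0.18), Ifi47 (-0.07), Tgtp1 (0.72) and Tgtp2 (0.90, adjusted p = 0.0507 in limma). The lower genes were the Ifitm3 paralogs Ifitm2 (-0.54 ± 0.07, adjusted p = 0.0194 in limma) and Ifitm1 (-0.54 ± 0.13, adjusted p = 0.0465 in limma) and the lymphocyte and macrophage gene Slfn2 (-0.92 ± 0.15, adjusted p = 0.0249 in limma). Ifitm1 was not called in edgeR, with median-of-ratios scaling, without the filter or without WC1 1. Ifitm2 measured 344 and 356 CPM in Ctrl against 244 and 238 CPM in WC1. Paralogs of 1 family share sequence and some of these genes overlap, so these values are not independent of those of the members.

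Of 17 typical interferon gamma targets 15 were tested, and 3 were higher and 0 lower in WC1, with a median log2 fold change of 0.17, beside 10.2% higher and 7.71% lower over all tested genes. Ciita, the master regulator of MHC class II genes, measured 22.1 and 20.8 CPM in Ctrl against 51.4 and 45.3 CPM in WC1 (1.13 ± 0.09, adjusted p = 0.0103 in limma). Cxcl9, a chemokine that attracts activated T cells, measured 17.4 and 20.6 CPM in Ctrl against 37.2 and 35.6 CPM in WC1 (0.91 ± 0.10, adjusted p = 0.0156 in limma). Nos2, the inducible nitric oxide synthase, measured 4.23 and 4.70 CPM in Ctrl against 9.54 and 12.3 CPM in WC1 (1.12 ± 0.15, adjusted p = 0.0188 in limma). The WC1 libraries were above the Ctrl libraries for each of these 3. The other 12 tested targets were not called, and over all 15 the log2 fold change was positive for 11 and negative for 4.

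**Figure D4:**
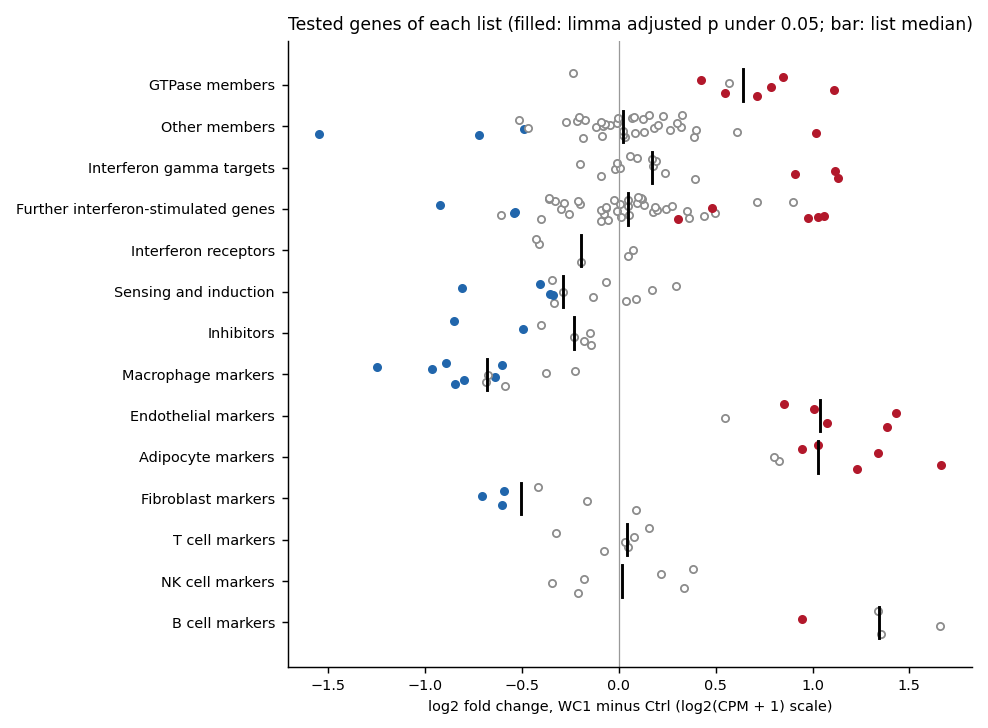
Log2 fold change (WC1 minus Ctrl, log2(CPM + 1) scale, x axis) of each tested gene of the GTPase members, the other members, the pathway lists and the macrophage, endothelial, adipocyte, fibroblast, T, NK and B cell marker lists, with filled points for an adjusted p under 0.05 in limma and a bar for the list median. The medians of the GTPase members (0.64), endothelial markers (1.04), adipocyte markers (1.03) and B cell markers (1.35) lie to the right, and those of the macrophage markers (-0.68) and fibroblast markers (-0.50) to the left.

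The median log2 fold change was 1.04 for endothelial, 1.03 for adipocyte and 1.35 for B cell markers. It was -0.68 for macrophage and -0.50 for fibroblast markers, while T cell and NK cell markers were not called. B cell marker sums were 4.47 and 2.59 CPM in Ctrl and 7.47 and 26.9 CPM in WC1, with 1 of 4 tested markers higher. Of 4 measured neutrophil markers S100a8 alone passed the filter and was called higher. S100a9 had 45 and 31 reads in Ctrl against 6 and 10 in WC1, Retnlg 14 and 7 reads in Ctrl against 0 in both WC1 libraries, and Mpo overlapped, so the neutrophil markers did not share a direction. Plasmacytoid dendritic cells, a main source of type I interferon, had marker sums of 3.65 to 4.61 CPM in Ctrl and 3.23 to 8.94 CPM in WC1, with 0 of 3 tested markers called. Conventional dendritic cell markers were higher in 1 and lower in 2 of 7 cases, fibroblast markers lower in 3 of 6, mesothelial markers called in 0 of 5, and 1 of 4 erythroid markers was higher. Which cells carried the members was not tested.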

How the data were processed

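Poly(A) RNA of the epididymal adipose tissue had been made into directional libraries, and 4 libraries were compared, grouped by their titles. The members and all lists were chosen with earlier results of these data known. In the first matrix the authors deposited a signal called CPM, reads divided by a rescaled library size, with column sums of 97.6% to 105% of that of plain CPM. In this matrix 100% of values were whole reads to within 0.01 read. In the second the authors deposited TPM. The submitters' processing notes name fastp, HISAT2, StringTie and mm10. For the read counter and the annotation the sources used here give nothing.

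The filter kept genes that reached 0.5 CPM in 2 or more libraries. WC1 was compared with Ctrl on log2(CPM + 1) with limma 3.58.1 in R 4.3.3 (two-sided, variance trend), with Benjamini-Hochberg adjustment over all 14106 genes kept, and 0.05 was the threshold. The fold changes printed are on this scale, which understates those of low genes. Errors are SE, with 2 libraries per group. An exact permutation test cannot go below p = 0.333. Alternatives used edgeR 4.0.16 and DESeq2 1.42.0 on the recovered reads, other scalings, filters and pseudocounts, a replicate block, and each library left out. The scripts were tested on simulated data.

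Values were printed for members called in limma, for the uncalled member of each role with the highest TPM, for receptors and ligands, and for at most the 4 called genes of smallest p per pathway list and direction. Other genes with values are Gbp7, Irf7, Ifi44, Mx1, Usp18, Dtx3l, Irgm2, Ifi47, Tgtp1, Tgtp2, S100a9 and Retnlg, added after their values were seen. A list of signalling genes is not reported here. Positions are from GENCODE M21 and promoters from RefSeq. The floors of 3 reads cover counting error only.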

Additional observations from a re-analysis of the deposited data

How the results depend on the processing

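The counts of 7 higher and 3 lower members were within 1.5 times the main counts in most alternatives, and the exceptions came from the filter, the TPM scale and the libraries. Pseudocounts of 0.25 and 4, a filter in 1 library and median-of-ratios scaling gave 7 and 3, quantile normalization 6 and 2 (Gbp5 and Ifitm3 not called), edgeR on recovered reads 8 and 3, and DESeq2 9 and 4. Of all tested genes edgeR called 10.5% higher and 7.14% lower, and DESeq2 15.1% and 12.3%. Without a filter 18132 genes were tested, of which 4.35% were higher and 2.93% lower, and 2 members were higher and 1 lower, with the calls of Gbp2, Gbp3, Gbp4, Gbp5, Igtp, Ifi204 and Ifitm3 lost. On the TPM scale 8 were higher and 1 lower and the member median was 0.18, with the median of all tested genes shifted by 0.12; the all-gene calls there split into 14.6% higher and 4.13% lower, against 10.2% and 7.71%. Leaving out 1 library gave 0 to 10 higher and 0 to 8 lower members and medians of 0.06 to 0.15, with 0 and 0 without Ctrl 1 and likewise without Ctrl 2. The lone sample of a group is then assumed to vary like the other group. The log2 fold change of Isg15 turned to 0.082 on the TPM scale and ranged from -0.19 to 0.10 with 1 library left out, positive without Ctrl 2 or WC1 1 (0.085). That of Mndal turned to 0.067 on the TPM scale and that of Ifi35 to -0.016 without WC1 2. For the genes chosen by the naming rule, which leaves out genes added later such as Gbp7 and Irf7, there were 490 values over the 14 alternatives, of which 400 kept direction and side of the threshold, 81 lost their call (56 of them with a library left out), 4 gained one and 5 turned. The labels share the numbers 1 and 2 between groups but do not say that they pair libraries, and the differences between the numbered libraries correlated at 0.19 across genes. With a replicate block 8 members were higher and 4 lower, with Gbp7 (higher) and Irf5 (lower) added to the calls and a member median of 0.07, against 12.5% and 10.6% of all tested genes. The causes of these differences were not tested.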
